A study of Homo sapiens with 12 samples.

Results

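The messenger RNAs described here are the products of 33 nuclear genes that encode subunits of the respiratory complexes III, IV and V. They were chosen by a list of Ensembl gene identifiers, defined as the UQCR genes and CYC1 (complex III), the COX genes (complex IV) and the ATP5 genes (complex V). All 33 were found among the 57820 gene identifiers of the count tables, and all 33 passed the filter on low counts. Their counts lay between 112 and 2704 reads in any library, with a median of 632.5, so none of them rested on a few reads in either kind of library. The tables hold identifiers only, and the 59792 genes of the reference table used here are not paired with Ensembl identifiers (0 of 33 matched). The list could therefore not be checked against names, the subunit behind each identifier is not stated, the 3 complexes were not separated, and at most 4 identifiers are named per comparison.

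Complex III passes electrons from ubiquinol to cytochrome c, and complex IV passes them on to oxygen. Both pump protons across the inner mitochondrial membrane, and complex V, the ATP synthase, uses that gradient to make ATP. Each of these complexes combines a few subunits made inside the mitochondrion with many that are encoded in the nucleus, translated by cytosolic ribosomes and imported. Most of the nuclear-encoded subunits are small proteins, so their mRNAs have short coding regions that hold few ribosomes at a time. Genes of these families are known for processed pseudogenes with near-identical sequence, and the sources used here do not say how reads shared with such copies were counted, so the levels carry that uncertainty.

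The study used HEK293 cells, a human embryonic kidney line, carrying FLAG/HA-tagged RPL12, a protein of the large ribosomal subunit at the base of its stalk. Per the labels' protocols, these were Flp-In T-Rex derivatives with stable overexpression of the tagged protein, in 3 forms: WT, S38A, with alanine in place of the serine, and S38D, with aspartate in its place. They were selected with hygromycin and grown as monoclonal colonies, so form and line coincide and their effects cannot be told apart. Lysates of all lines were separated on sucrose gradients, 80S fractions were pooled and given cycloheximide, and 1 portion was kept as input while the remainder went to anti-FLAG immunoprecipitation (IP). Input and IP of 3 lines in 2 replicates make 12 libraries of polyadenylated RNA in 6 groups. Separate cultures are not named for the replicates, and the p-values hold for the spread between libraries alone, which may be technical. An IP from untagged cells was not analysed here, so recovery through RPL12 and RNA bound in other ways cannot be told apart. Gene counts were 7434431 to 8723130 in the inputs and 3186164 to 7430881 in the IP libraries. The tagged gene and markers of the cell line were not analysed here.

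The first question was how these mRNAs were distributed between the tagged-RPL12 IP and the 80S input from which it was made. Together they were more abundant in every IP library than in any input library. Their summed level, in CPM (counts scaled to a common library total) after scaling by the trimmed mean of M values (TMM), was 3488 and 3749 in the WT inputs, 3289 and 2796 in the S38A inputs and 3261 and 3360 in the S38D inputs. In the IP libraries it was 4628 and 5489 for WT, 4372 and 4001 for S38A, with 4938 and 5161 for S38D. The lowest IP value, from S38A, thus lay above the highest input value, from WT. Within fractions the ratio of IP to input was 1.33 and 1.46 for WT, 1.33 and 1.43 for S38A, with 1.51 and 1.54 for S38D.

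**Figure D1:**
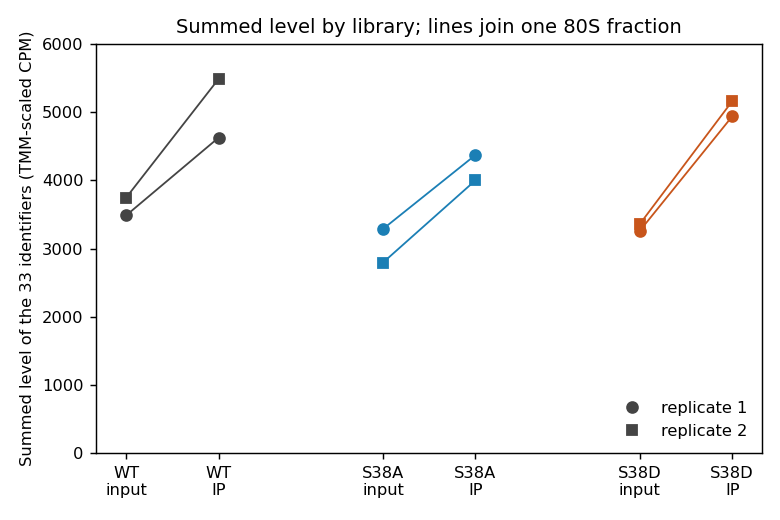
Summed TMM-scaled CPM of the 33 identifiers (vertical axis) in each input and IP library of the WT, S38A and S38D lines, with lines joining the input and IP library of an 80S fraction and the symbol giving the replicate number. All 6 IP libraries (4001 to 5489) lie above all 6 inputs (2796 to 3749).

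The size of this shift depends on how libraries are scaled. As a plain share of gene counts, the 33 genes took 0.311% to 0.385% of the inputs and 0.382% to 0.502% of the IP libraries, and these ranges overlapped at their ends. The low end of the IP range was the first WT library, where the share was 1.03 times that of its input, against 1.20 to 1.34 times in the other 5 fractions. TMM factors were 1.03 to 1.12 in the inputs and 0.827 to 1.04 in the IP libraries, with the lowest in that WT library. Spike-in RNA and depth also moved with IP: ERCC sequences took 0.305% ± 0.127 (SD, n = 6) of the counts in inputs and 3.43% ± 1.65 (SD, n = 6) in IP libraries. Their part in the result was not tested.

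Gene by gene, 29 of the 33 mRNAs were higher in IP over the 3 lines and 0 were lower (edgeR quasi-likelihood test over 16920 genes, Benjamini-Hochberg adjusted p under 0.05), where 15.9% of all genes tested were called higher and 15.9% lower. Adjusted p among the 29 ran from 0.000126 to 0.0316. All 33 fitted changes were positive, against 46.4% of all genes. The median log2 change was 0.54, a 1.45-fold difference, against a median of -0.04 over all genes. Changes ran from 0.07 to 1.03 on the log2 scale, with standard errors of 0.08 to 0.18, and 11 of the 33 were above 1.5-fold. Ranked by change, 13 of the 33 were among the top 10% of all genes. With total counts in place of TMM, 18 were called higher and 0 lower, where 7.67% of all genes were called higher and 31% lower. The members' median was then 0.32 and that of all genes -0.25, and 30 of 33 changes were positive. The distance between the medians was 0.57 under either scaling. Scaling moves all genes of a library together, so that distance could hardly change and is no check of the shift.

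**Figure D2:**
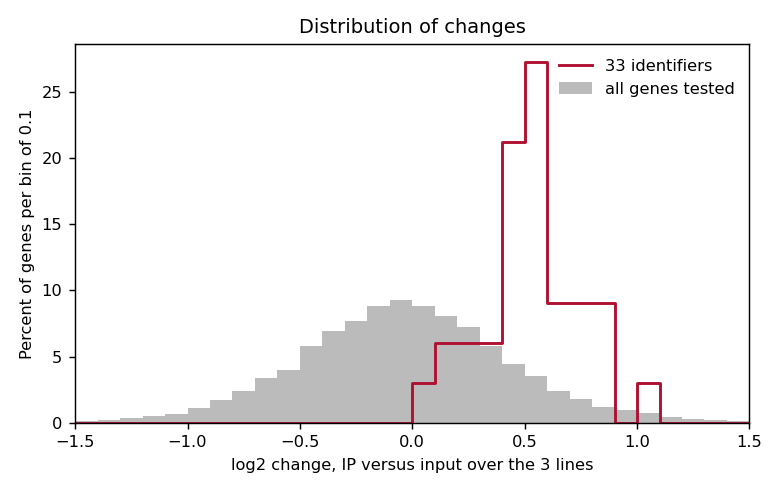
Percent of genes per bin of 0.1 (vertical axis) against the log2 change in IP versus input over the 3 lines (horizontal axis), for all 16920 genes tested in grey and the 33 identifiers as a red outline. The 33 lie between 0.07 and 1.03, while all genes are centred on -0.04; 0.567% of all genes lie below the axis and 0.437% above it.

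Abundance moved with the change in these libraries, and most of the 33 are abundant. By mean CPM, 26 of the 33 were in the highest quartile of genes (71.05 CPM or more) and 9 in the top 10%. In that quartile 37.4% of all genes were called higher, with a median change of 0.17, and in the top 10% it was 51.2%, with a median of 0.31. Of the 26 members in the quartile 22 were called higher, and of the 7 below it 7 were, against 8.72% of all genes there. The part of abundance in the result was not tested. The members' mean levels ran from 37.7 to 348 CPM. These values are not per length, so levels of different members are not set against each other.

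The same comparison was made fraction by fraction. In 30 of the 33 mRNAs the IP library was higher than its own input in 6 of 6 fractions, a pattern shown by 20.3% of all genes. Of the other 3, 2 were higher in 5 fractions and 1 in 4. In 18 of the 33, the lowest of the 6 IP libraries exceeded the highest of the 6 inputs, against 6.15% of all genes and 16.6% of those in the highest abundance quartile. The median change of the 33 was 0.35 and 0.56 in the WT fractions, 0.37 and 0.53 in S38A, and 0.60 and 0.59 in S38D. The medians of all genes in the same fractions were between -0.07 and 0.00. The first WT and first S38A fractions thus gave the smallest shifts, and every fraction had at least 31 of the 33 above 0.

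**Figure D3:**
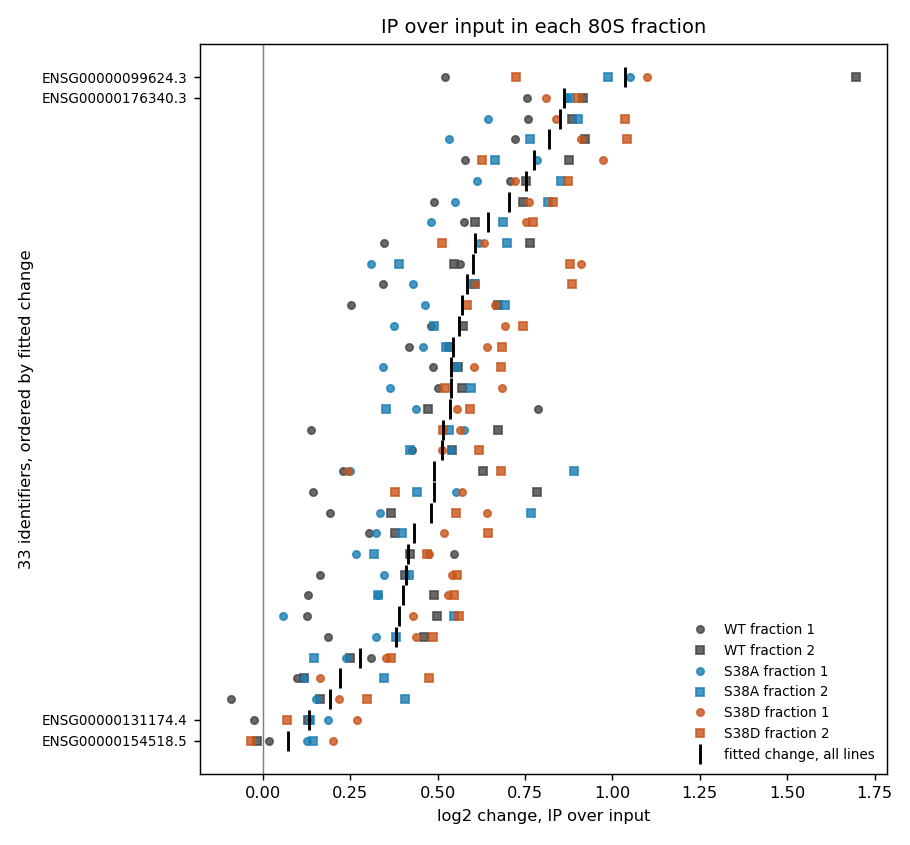
Log2 change in IP over input (horizontal axis) for each of the 33 identifiers (rows, ordered by the fitted change, with the extreme 4 labelled) in each of the 6 fractions (coloured symbols) and as fitted over the 3 lines (black ticks). Of all the fraction values 4 lie below 0, all in the lowest 3 rows, and the fitted changes run from 0.07 to 1.03.

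The identifier with the highest change was ENSG00000099624.3. Its CPM in the inputs was 60.3 and 38.9 for WT, 38.9 and 35.5 for S38A, with 47.7 and 32.1 for S38D. In the IP libraries it was 86.7 and 126 for WT, 80.7 and 70.8 for S38A, with 102 and 53.2 for S38D. It was higher in IP in every fraction, but the second S38D IP library lay below the first WT input, so the 2 sets of libraries overlapped. The log2 change was 1.03 (SE 0.18, edgeR adjusted p = 0.00114), and the fraction changes ran from 0.52 to 1.70, both ends coming from WT.

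ENSG00000176340.3 had the second highest change with much less spread. Its inputs were 30.1 and 28.9 CPM for WT, 23.6 and 26.2 for S38A, with 27.9 and 24.1 for S38D. Its IP libraries were 50.9 and 54.8 for WT, 43.4 and 48.3 for S38A, with 49.1 and 45.2 for S38D. The lowest IP value was well above the highest input. The log2 change was 0.86 (SE 0.10, edgeR adjusted p = 0.000155), and the 6 fractions gave 0.76 to 0.92.

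At the other end 4 of the 33 did not pass, with changes of 0.07 to 0.22 and adjusted p of 0.102 to 0.612 (edgeR). ENSG00000154518.5 had the lowest change. Its CPM ran from 57.9 to 86.4 in the inputs (median 73.7) and from 63.9 to 85.4 in the IP libraries (median 78.1), so the sets overlapped over most of their range. The log2 change was 0.07 (SE 0.10, edgeR adjusted p = 0.612). ENSG00000131174.4 ran from 60.0 to 85.7 CPM in the inputs (median 72.3) and from 66.0 to 93.8 in the IP libraries (median 77.8), with a change of 0.13 (SE 0.10, edgeR adjusted p = 0.313). With total counts both changes turned negative, at -0.14 and -0.08, and neither passed (adjusted p = 0.28 and 0.558). Among the 33 the changes had a standard deviation of 0.21.

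The next question was whether each line showed the same distribution. All 33 fitted changes were positive in each of the 3 lines, with medians of 0.49 in WT, 0.48 in S38A and 0.59 in S38D, and medians of -0.04, 0.00 and -0.05 over all genes. In WT 10 passed, in S38D 11 and in S38A 0, with 0 lower in any line. Among all genes 5.77% were called higher and 5.48% lower in WT, against 0% and 0% for S38A and 3.13% with 1.74% for S38D. In S38A 22 of the 33 had an unadjusted p under 0.05 (15.2% of all genes), and the lowest adjusted p among them was 0.125 (edgeR). DESeq2 called 18 higher in WT, 22 in S38D and 9 in S38A. Of all genes with an adjusted p in DESeq2, 11.3%, 10.2% and 2.08% were called higher, in the same order. The counts of calls therefore differ between lines while the medians lie close together, and only a test of the difference, given further on, compares the lines.

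Per the labels' protocols, an input and an IP library with the same number were made from 1 fraction. With the fraction as a replicate block, 22 of the 33 passed in WT, 21 in S38A and 28 in S38D, and 31 over the 3 lines (edgeR). The share of all genes called higher in that fit was 14%, 5.92%, 10.7% and 22.5%. The calls in single lines also hung on single libraries, and the calls over all genes moved with them. In WT 976 genes in all were called higher, 10 of them members. Without the first WT input these counts were 61 and 0, and without the second 0 and 0. Without the first S38D input they were 743 and 6, without the second 741 and 6, and without the first WT IP library 231 and 6. In S38D 530 genes were called higher, 11 of them members. Leaving out any 1 of the 4 S38D libraries left 0 members and 0 to 4 genes in all. Without WT IP replicate 1 the counts were 1082 genes and 18 members, and without WT IP replicate 2 they were 1154 and 19. In S38A they were 53 and 3 without the first WT IP library, and 52 and 3 without the second. With total counts, 2 members passed in WT and 3 in S38D, against 2.86% and 1.43% of all genes. Over the 3 lines, with TMM, the members' median change ran from 0.46 to 0.56 when any 1 library was left out. The median of all genes then ran from -0.07 to -0.02.

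In WT the called identifiers of largest change were again ENSG00000099624.3, at 1.11 (SE 0.31, edgeR adjusted p = 0.037), and ENSG00000176340.3, at 0.84 (SE 0.17, adjusted p = 0.0125). ENSG00000099624.3 lost its call without any 1 of the 4 WT libraries or without the first S38A IP library, and ENSG00000176340.3 without either WT input (edgeR adjusted p = 0.0649 and 0.112). With total counts neither passed (edgeR adjusted p = 0.0887 and 0.0505).

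In S38D the called identifiers of largest change were ENSG00000164405.6 and ENSG00000169020.5. ENSG00000164405.6 stood at 77.4 and 74.7 CPM in the S38D inputs and at 146 and 154 in the IP libraries, a change of 0.98 (SE 0.14, edgeR adjusted p = 0.0196). Its inputs in all lines lay within 74.7 to 82.0 CPM, a narrow range beside 117 to 154 CPM in IP. ENSG00000169020.5 stood at 58.2 and 60.1 CPM in the S38D inputs and at 104 and 124 in the IP libraries, a change of 0.94 (SE 0.15, edgeR adjusted p = 0.0196). Both lost their calls without any 1 of the S38D libraries, with changes that stayed between 0.82 and 1.06.

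In S38A the 2 identifiers of lowest p were ENSG00000176340.3, at 0.88 (SE 0.17, edgeR adjusted p = 0.125), and ENSG00000169020.5, at 0.78 (SE 0.15, adjusted p = 0.125). Neither passed, although the 2 IP libraries lay above the 2 inputs for both. ENSG00000169020.5 stood at 56.0 and 49.7 CPM in the S38A inputs and at 87.7 and 93.3 in the IP libraries. With the fraction as a block they passed (edgeR adjusted p = 0.00706 and 0.00739), as they did in DESeq2 (adjusted p = 0.00334 and 0.00271).

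The 33 mRNAs kept much the same order in the 3 lines, which share no libraries. Across the 33 genes, the changes in WT and S38D had a Pearson correlation of 0.91 and a Spearman correlation of 0.87. For WT and S38A these were 0.89 and 0.82, and for S38A and S38D 0.81 and 0.79. Over all 16920 genes the Pearson correlations were 0.66, 0.62 and 0.62, and the Spearman correlations 0.73, 0.68 and 0.70, in the same order. All genes include those of much lower counts, with mean levels down to 0.314 CPM. The changes come from 1 fit, and genes are not independent replicates. Of the identifiers called in WT or S38D, 8 were called in both lines and 5 in 1 of them. Among all genes 976 were called higher in WT and 530 in S38D, but their overlap was not counted. These counts of members therefore have no background to be read against. All of these identifiers were also called over the 3 lines, which is no separate support, since that comparison averages the same libraries.

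**Figure D4:**
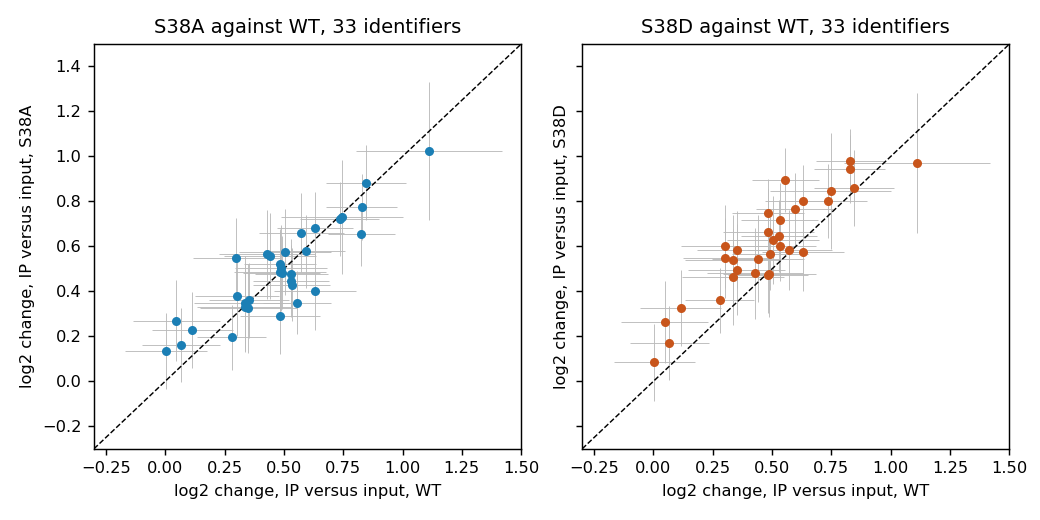
Log2 change in IP versus input in S38A (left, vertical axis) and S38D (right, vertical axis) against that in WT (horizontal axis) for the 33 identifiers, with bars of 1 standard error and the line of equal change dashed. Points follow the line in both panels (Pearson 0.89 and 0.91), and in S38D 29 of 33 lie above it.

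Interaction contrasts asked whether the ratio of IP to input was the same in the 3 lines, and 0 of the 33 passed in any of them (edgeR; 0 also in DESeq2). The background was 0% in each. At unadjusted p under 0.05 there were 0 of 33 for S38A versus WT, 0 for S38D versus WT and 1 for S38D versus S38A, with 2.32%, 0.792% and 0.644% among all genes. The median difference was 0.00 for S38A versus WT, with 17 of 33 positive, where all genes had a median of 0.05 and 56.3% were positive. With RLE size factors 13 of 33 were positive and with total counts 29, with medians of -0.028 and 0.14 beside 0.021 and 0.19 over all genes. For S38D it was 0.12 against WT, with 29 positive where 52.3% of all genes were, and 0.12 against S38A, with 25 positive where 46.8% were. With total counts the median against S38A turned to -0.021, with 15 of 33 positive and a median of -0.16 over all genes. Leaving out S38A input replicate 1 gave 0.014, S38A input replicate 2 gave 0.22, S38A IP replicate 2 gave 0.056 and S38D IP replicate 1 gave 0.19. These contrasts share libraries. Standard errors of single members were 0.20 to 0.43, so differences of the size of these medians were not detectable gene by gene.

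The medians of the comparisons with WT changed sign with single WT IP libraries. Without the first WT IP library the median was -0.17 for S38A versus WT and -0.04 for S38D versus WT. Without the second it was 0.20 and 0.29. The identifier of lowest p in each contrast was ENSG00000164919.6. It stood at 66.5 and 64.9 CPM in the WT inputs, 60.1 and 53.9 in S38A and 53.1 and 56.9 in S38D. In the IP libraries it stood at 98.4 and 94.9 for WT, 74.6 and 70.7 for S38A, with 100 and 105 for S38D. Both S38A IP libraries were thus below the other 4. The difference in IP over input was 0.55 for S38D versus S38A (SE 0.20, unadjusted p = 0.017, edgeR adjusted p = 1), 0.34 for S38D versus WT (SE 0.20, adjusted p = 1) and -0.21 for S38A versus WT (SE 0.20, adjusted p = 1). The identifiers next in p did not pass either: ENSG00000164405.6 at 0.32 for S38D versus S38A, ENSG00000241468.3 at 0.27 for S38D versus WT, and ENSG00000111775.2 at 0.25 for S38A versus WT (SE 0.20, 0.21 and 0.26, edgeR adjusted p = 1 each).

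The last question was whether the levels of these mRNAs in the 80S input itself differed between lines. In bulk libraries such as these, fewer cells of a type and less RNA per cell cannot be told apart. All libraries come from 80S fractions, so an mRNA's level in the cell and its share in that fraction cannot be told apart either. No member passed in any of the 3 comparisons (edgeR over 16728 genes; 0 also in DESeq2), and the background was 0% for S38A versus WT and 0.00598% higher and 0% lower for each of the others. At unadjusted p under 0.05 there were 5 of 33 for S38A versus WT, 0 for S38D versus WT and 1 for S38D versus S38A, against 15.3%, 3.32% and 3.77% of all genes. The 33 genes leaned lower in the S38A inputs than in WT, with 29 of 33 changes negative and a median of -0.26, where all genes had a median of -0.02 and 48% were positive. For S38D versus WT 29 were negative with a median of -0.10, where 48.9% of all genes were positive. Without the second WT input that median was -0.050. For S38D versus S38A 26 were positive with a median of 0.14, where 50.2% of all genes were positive. That median was 0.035 without the second S38A input and 0.28 without the first. With the inputs scaled to spike-in counts, the median was -0.91 for S38D versus WT, with -0.83 over all genes, and it turned to -0.23 for S38D versus S38A, with -0.40 over all genes. Spike-in sequences took 0.116% of the counts in the first WT input and 0.484% in the second, against 0.35% and 0.33% in the S38D inputs. The spike-in medians against WT thus rest on WT inputs that disagree in this share.

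The lean in S38A was carried unequally by its replicates. The second S38A input was lower than the first in 32 of the 33 genes, with a median difference of -0.22, while its summed level of 2796 CPM was the lowest of all libraries. The share of all genes lower in that input was not counted. Without that library the median for S38A versus WT was -0.13, and without the first S38A input it was -0.39. With spike-in scaling it was -0.69, with -0.44 over all genes.

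The identifiers of lowest p between the S38A and WT inputs were ENSG00000159199.9 and ENSG00000110955.4, and neither passed. ENSG00000159199.9 stood at 111 and 113 CPM in the WT inputs, 88.4 and 69.2 in S38A, and 94.9 and 115 in S38D. S38A was thus below WT in both libraries, while 1 S38D input was above every other. The change for S38A versus WT was -0.48 (SE 0.16, edgeR adjusted p = 0.215), and for S38D versus S38A it was 0.41 (SE 0.16, adjusted p = 0.959). ENSG00000110955.4 stood at 221 and 250 CPM for WT, 186 and 174 for S38A, with 196 and 200 for S38D. Both mutant lines were below WT in every library. The change was -0.37 for S38A versus WT (SE 0.13, edgeR adjusted p = 0.228) and -0.23 for S38D versus WT (SE 0.13, adjusted p = 1). Lowest in p for S38D versus WT was ENSG00000178741.7 at -0.37 (SE 0.18, edgeR adjusted p = 1), where 1 S38D input stood at 82.6 CPM and the other at 57.3. For S38D versus S38A the second lowest was ENSG00000131143.4 at 0.22 (SE 0.14, edgeR adjusted p = 0.959), and with spike-in scaling it was -0.16.

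**Figure D5:**
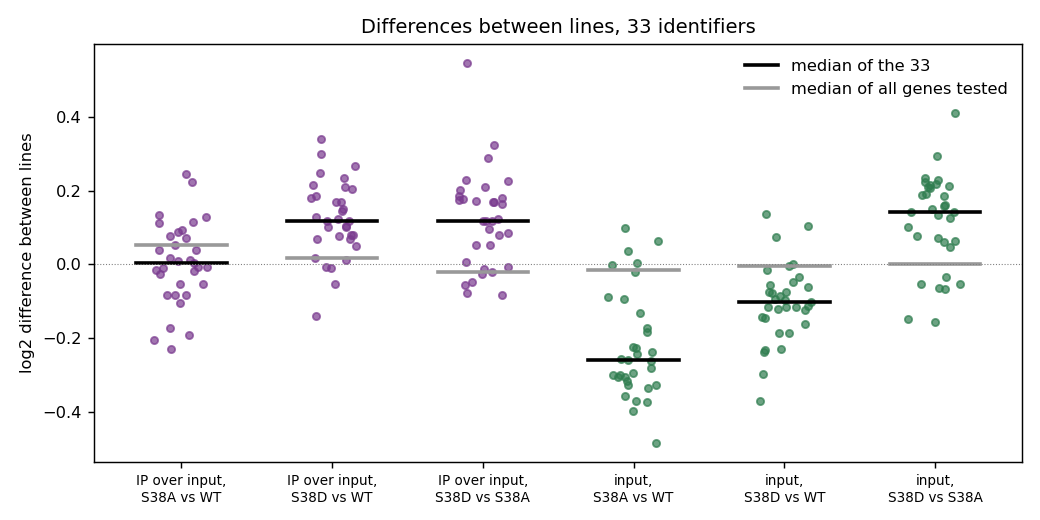
Log2 difference between lines (vertical axis) for the 33 identifiers (points) in IP over input (purple) and in the inputs (green), with the median of the 33 in black and that of all genes tested in grey. The input medians are -0.26, -0.10 and 0.14 and those of IP over input 0.00, 0.12 and 0.12; no point passed the test.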

How the data were processed

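Per the labels, each of the 12 libraries has 1 table of raw read counts, which the authors deposited for 57820 Ensembl gene identifiers and 92 ERCC spike-in sequences. The submitters' processing notes name bcl2fastq 2.16.0.10, STAR 2.4.2a, DESeq2 and hg19. For the counter, strand, multiply mapped reads and annotation, nothing is given in the sources used here.

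Tests used edgeR 4.0.16 in R 4.3.3 (filterByExpr by group, minimum count 10; TMM; glmQLFit and glmQLFTest). Within each of 10 comparisons p-values were adjusted over all genes tested by Benjamini-Hochberg, and genes under 0.05 were called. One model held the 12 libraries (biological coefficient of variation 17.4%), with interaction contrasts, and another the 6 inputs (15.7%). ERCC counts were left out of both. Standard errors are the log2 change over the square root of F. Changes by fraction are differences of log2 CPM (prior count 2). The comparison of IP with input over all lines was tested on simulated data.

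The labels' protocols tie an input and an IP library of 1 number to 1 fraction. Over all genes their deviations from group means correlated at 0.281 (WT), 0.644 (S38A) and 0.543 (S38D). The WT and S38D inputs, which share no fraction, correlated at 0.217. In WT the correlation thus does not establish the pairing, which rests on the protocols. No replicates agreed within sampling noise (chi-square per degree of freedom 4.01 to 10.4).

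The members and lists were chosen with earlier results of these data known. The rule for named genes asked for the highest and lowest change in each complex and, per line, the called members of largest change or, with none called, the 2 of lowest p. Without names it was applied to the whole list, with at most 2 identifiers at each end. Lists fixed by symbol and the relation to protein length were not analysed here. The settings varied were size factors (RLE, total counts, spike-in counts for inputs), the tool (DESeq2 1.42.0), the filter (none, or mean CPM of 10 or more), the replicate block, and each library left out.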

Additional observations from a re-analysis of the deposited data

Results flagged for a closer look

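Spike-in RNA, which entered the comparisons only as an alternative scaling of the inputs, made up 3.43% of an IP library on average but 0.305% of an input, so its signal in IP stood above the level in the inputs. The cause was not tested. In 42 checks for a library or fraction far from the others, over the 6 inputs, 6 IP libraries or 6 fractions for the summed level and each named identifier, 0 passed Dixon's 95% critical value; chance alone gives about 1 in 20.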

How the results depend on the processing

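Of values of single identifiers, 336 kept their direction and side of the threshold, 10 newly passed, 17 no longer passed and 3 reversed. Of counts of members, 306 stayed within 1.5 times and 24 moved. A count of 0 under both settings was taken as having stayed. The main count was 0 for members called lower in every comparison and for those called higher between lines. The 306 therefore do not show how stable the other counts were. Of medians, 144 moved by less than the replicate spread and 21 by more. Settings that left out a library outside the comparison were counted too, and these leave its fitted changes almost as they were. Identifiers far from the threshold between lines could hardly change sides. The 336 and the 144 are therefore no measure of stability either. With total counts, 18 members were called over the 3 lines, 2 in WT and 3 in S38D (1298, 484 and 242 genes in all). The medians were then 0.32 over all lines, 0.23 in WT, 0.36 in S38A and 0.33 in S38D, 0.14 for S38A versus WT and -0.021 for S38D versus S38A in IP over input, and ENSG00000154518.5 (-0.14) and ENSG00000131174.4 (-0.080) reversed. DESeq2 called 18 in WT, 9 in S38A and 22 in S38D (1572, 236 and 1190 genes in all), and omitting the filter gave 6 in WT and 5 in S38A (1239 and 235 genes). With the replicate block, 22, 21 and 28 were called in WT, S38A and S38D (2366, 1001 and 1809 genes); it changed no count between lines. A pairing of the lines by the replicate numbers of the inputs was not shown (correlations of deviations -0.07, 0.22 and 0.11), and the block left 0 members called there. Spike-in scaling of the inputs gave medians of -0.69 (S38A versus WT), -0.91 (S38D versus WT) and -0.23 (S38D versus S38A), with -0.44, -0.83 and -0.40 over all genes, and ENSG00000131143.4 reversed to -0.16. The spike-in share differed between the WT inputs, at 0.116% and 0.484% of the counts. Leaving out each library in turn gave 25 to 29 calls over all lines, 0 to 9 in WT, 0 to 3 in S38A and 0 to 19 in S38D, and the calls over all genes moved with them. Medians ran from 0.46 to 0.56 over all lines, 0.35 to 0.61 in WT, 0.36 to 0.56 in S38A, 0.56 to 0.62 in S38D, and, in IP over input, -0.17 to 0.20 for S38A versus WT, -0.039 to 0.29 for S38D versus WT and 0.014 to 0.22 for S38D versus S38A. Input medians ran from -0.39 to -0.13 for S38A versus WT, from -0.14 to -0.050 for S38D versus WT and from 0.035 to 0.28 for S38D versus S38A. A lone library was then assumed to vary like the other groups. Beyond the construction of each alternative the cause was not tested. The relation to protein length was not run, since no identifier was tied to a protein. With 2 libraries per group, differences between lines of the size of the medians were not detectable for single members.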

Other observations

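In the S38D fractions, replicates of 2 identifiers deviated in the same direction in the input and the IP library. They were chosen after their values were seen. ENSG00000178741.7 stood at 82.6 CPM in the first S38D input and 57.3 in the second, and at 162 and 88.7 CPM in their IP libraries. ENSG00000099624.3 stood at 47.7 and 32.1 CPM in these inputs and at 102 and 53.2 in their IP libraries. In WT it went opposite ways, at 60.3 and 38.9 CPM in the inputs and 86.7 and 126.5 in IP. In S38A it fell from the first replicate to the second in both. ENSG00000178741.7 moved in the same direction in input and IP in WT and in S38A. Over the 33 genes, the deviation of the first input from its group mean correlated with that of the first IP library at 0.83 in S38D, 0.53 in S38A and 0.05 in WT, as a description over genes of 2 fractions per line.

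The replicate spread of the 33 was larger than that of the highest abundance quartile in the WT and S38A inputs and smaller in the other groups. That quartile includes 26 of the 33. The median absolute difference between replicates in log2 CPM was 0.17 in the WT inputs, 0.22 in the S38A inputs and 0.09 in the S38D inputs, against 0.15, 0.18 and 0.12 for the highest abundance quartile. In the IP libraries it was 0.28, 0.18 and 0.14, against 0.30, 0.19 and 0.17. The second WT IP library was higher than the first in 30 of the 33 genes. The share of all genes with that direction was not counted. Over all genes the median absolute difference between the WT IP libraries was 0.38, the largest of the 6 groups.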
